A study of Mus musculus with 3 samples.

Results

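TFAP2A peaks around Sox10 were taken as all peaks whose summit lay within the Sox10 gene body or within 100 kb of it in the mouse genome build mm9 (Sox10, ENSMUSG00000033006.8, chr15:78985343-78994920, minus strand, searched window chr15:78885343-79094920). There were 17 such peaks among the 18528 of ChIP replicate 1 and 18 among the 21459 of ChIP replicate 2, a mean of 17.5 ± 0.707 (SD, n = 2). Merged over the replicates they formed 20 regions, of which 15 were shared, meaning that peaks of both replicates overlapped by at least 1 bp. A further 2 regions were found in replicate 1 only and 3 in replicate 2 only.

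The data came from chromatin immunoprecipitation and sequencing (ChIP-seq) of TFAP2A in melan-a cells, an immortalised mouse melanocyte line derived from normal embryonic skin that is homozygous for the Cdkn2a tm1RDp allele, which removes the Ink4a-Arf products. Chromatin was fixed in 1% formaldehyde and precipitated with the AP-2alpha antibody 3B5, and the cells of all 3 samples (2 TFAP2A ChIP replicates from independent experiments and 1 input) were grown with 200 nM of the phorbol ester TPA and 200 pM cholera toxin, with no other treatment. A single line grown with these agents limits the cells as a model of melanocytes in skin. The authors deposited a list of peaks for each ChIP replicate, with a fold enrichment over background for every peak, and no values of the input were used here. With 1 group there was no comparison between conditions and no test, and fold enrichments are given for both replicates. Sequencing depth was not known for either list.

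SOX10 is an HMG-box transcription factor that neural crest cells need to form melanocytes, glia and enteric neurons, and in the melanocyte lineage it activates Mitf, the gene of the lineage's central regulator, and pigment genes such as Dct. Loss of 1 copy of Sox10 causes white spotting in mice and SOX10 mutations cause forms of Waardenburg syndrome. Expression of Sox10 is driven by several conserved distal elements lying both upstream and downstream of the gene, and a mouse line with a deletion far upstream has lowered Sox10 expression. TFAP2A is a neural crest transcription factor of the AP-2 family, which binds DNA as dimers at GC-rich palindromes. Positions of the published Sox10 enhancers in mm9 were given in none of the sources used here, so overlap of the peaks with them was not measured, and the coordinates of every region are printed so that it can be.

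The sequences at the centre of the strongest and the most promoter-proximal shared regions are shown first, because they differed in whether a TFAP2 consensus lay at the summit. Each is 101 bases of the plus strand of mm9 centred on the replicate 1 summit, and capitals mark matches to the TFAP2 consensus GCCNNNGG on either strand. Regions are named by the distance of the summit from the Sox10 transcription start site (TSS, position 78994920), with negative values upstream. Since Sox10 is on the minus strand, upstream has the higher coordinates.
Region at -48.4 kb (chr15:79043232-79043332): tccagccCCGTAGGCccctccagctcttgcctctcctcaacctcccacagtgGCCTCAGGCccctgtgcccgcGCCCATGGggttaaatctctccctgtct
Region at -44.8 kb (chr15:79039701-79039801): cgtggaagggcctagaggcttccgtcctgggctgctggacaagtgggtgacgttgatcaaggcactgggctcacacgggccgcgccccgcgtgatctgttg
Region at -0.9 kb (chr15:78995805-78995905): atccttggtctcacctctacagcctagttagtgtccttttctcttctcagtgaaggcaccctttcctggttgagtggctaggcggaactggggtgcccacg
Region at +62.3 kb (chr15:78932613-78932713): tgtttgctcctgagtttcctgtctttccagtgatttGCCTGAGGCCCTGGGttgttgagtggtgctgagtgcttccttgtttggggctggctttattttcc
Region at -5.1 kb (chr15:78999989-79000089): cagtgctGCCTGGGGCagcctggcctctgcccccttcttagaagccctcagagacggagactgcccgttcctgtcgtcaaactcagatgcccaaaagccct
Region at -2.7 kb (chr15:78997552-78997652): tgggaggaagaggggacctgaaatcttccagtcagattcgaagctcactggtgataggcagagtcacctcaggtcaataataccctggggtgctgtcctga

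The regions lay mainly on the upstream side of Sox10. Of the 15 shared regions 12 were upstream, 3 were downstream and 0 lay in the gene body. Counting the regions of 1 replicate as well, 15 were upstream and 4 downstream, and 1 lay in an intron of Sox10. The 12 upstream shared regions ran from -0.9 kb to -49.4 kb, a span of 48.5 kb in which the gaps between neighbouring summits ranged from 771 bp to 16.7 kb with a median of 2781 bp. Beyond the outermost of them, which ended at 79044706, the remaining 50.2 kb of the upstream window held no peak of either replicate. The next peaks outside the window lay in introns of Pla2g6 at -135.6 kb in replicate 1 (fold enrichment 4.62) and -135.5 kb in replicate 2 (fold enrichment 7.07). On the downstream side they lay in an intron of Triobp at 175.7 kb in replicate 1 (8.19) and in an intron of Gcat at 125.3 kb in replicate 2 (3.70). Just inside the window, the outermost peaks were those at -49.4 kb in both replicates (7.01 and 5.34), at 66.8 kb in replicate 1 (3.59) and at 62.3 kb in replicate 2 (8.64).

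**Figure D1:**
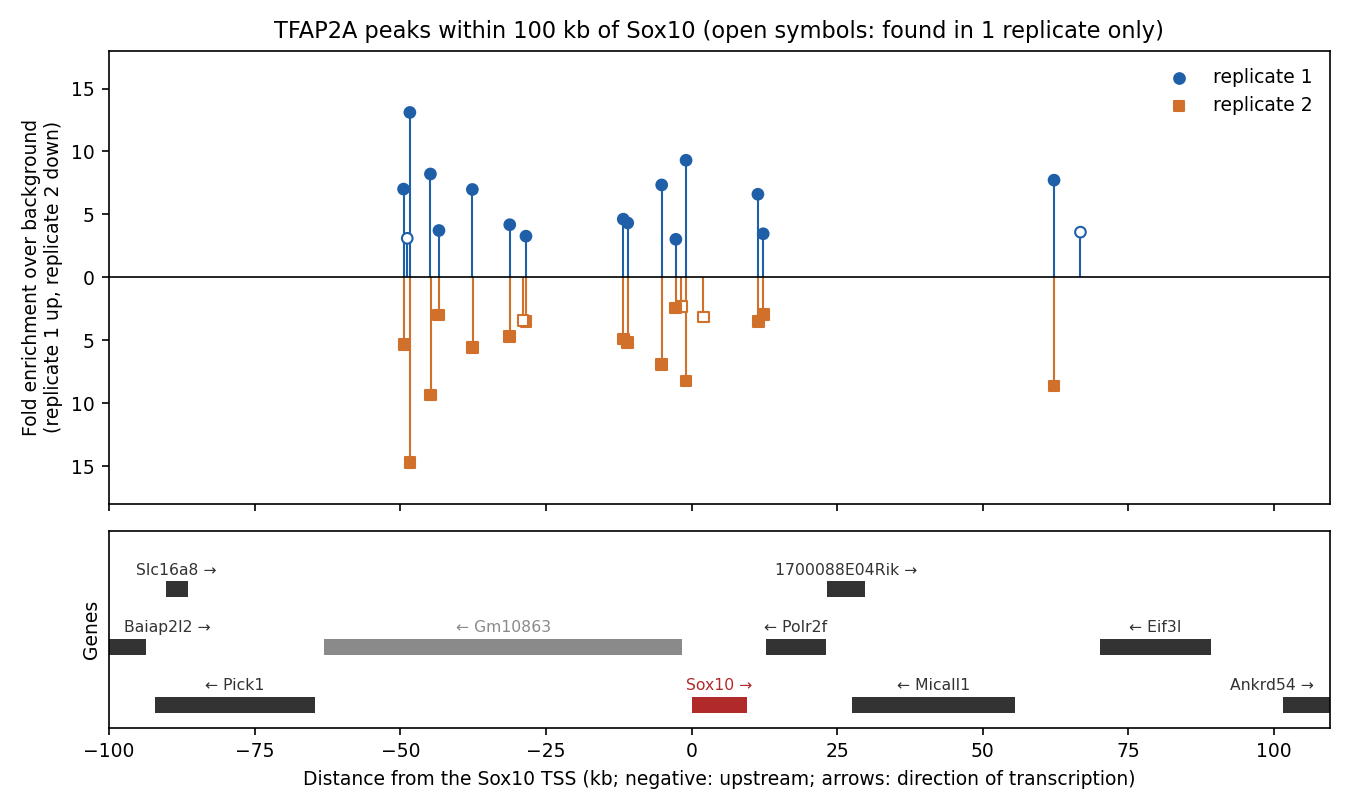
Fold enrichment over background (vertical axis, replicate 1 upward and replicate 2 downward) of each TFAP2A peak by the distance of its summit from the Sox10 TSS in kb, drawn in the direction of Sox10 transcription, with filled symbols for the 15 regions shared by the replicates, open symbols for those of 1 replicate, and the protein-coding genes and the non-coding gene Gm10863 below. The tallest peaks of both replicates stand at -48.4 kb (13.1 and 14.7), 12 of the 15 shared regions are upstream, and the upstream window is empty beyond -49.4 kb.

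Much of this upstream stretch is annotated as a long non-coding gene. Gm10863 (ENSMUSG00000075555.5, chr15:78996471-79057954, plus strand) starts 1551 bp from the Sox10 TSS and is transcribed away from it, and 11 of the 15 shared regions and 14 of all 20 had their summits within it. All but 1 of these lay in its introns. The exception was the -44.8 kb region, whose summit in an exon was 10 bp from an internal annotated start of Gm10863 at 79039741. From it 1 of the 5 transcripts begins, while the other 4 begin within 25 bp of each other, between 78996471 and 78996496. No function of Gm10863 is assumed here, and its expression was not measured in these files.

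The strongest region around Sox10 was the one at -48.4 kb (chr15:79042899-79043517, in an intron of Gm10863). Its fold enrichment was 13.1 in replicate 1 and 14.7 in replicate 2, or 13.9 ± 1.12 (SD, n = 2), and it was the only region of the window in the highest 10% of either list (above 12.1 and 11.9). The deposited -log10 p was 138 and 142. The replicate summits were 4 bp apart. By fold enrichment it was stronger than 91.7% of replicate 1 peaks and 94.4% of replicate 2 peaks, so it was strong within this locus but not among the extreme peaks of the genome, which reached 64.6 and 56.4.

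This region had neighbours on both sides. At -49.4 kb (chr15:79044044-79044706) the fold enrichment was 7.01 and 5.34, or 6.18 ± 1.18 (SD, n = 2), and a peak of replicate 1 alone at -48.8 kb (chr15:79043582-79043887) had 3.10. On the side towards Sox10, the -44.8 kb region (chr15:79039528-79040157) had 8.21 and 9.35, or 8.78 ± 0.802 (SD, n = 2), and the region at -43.4 kb (chr15:79038028-79038509) had 3.72 and 2.99, or 3.35 ± 0.514 (SD, n = 2). The outer group thus held the strongest region and several weaker ones, and in both replicates the -48.4 kb value lay above every other value in the window.

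At the Sox10 promoter, taken as 5 kb upstream to 1 kb downstream of the TSS, there were 2 shared regions. The stronger had its summit at -935 bp and lay at chr15:78995546-78996248, between Sox10 and the start of Gm10863, and had a fold enrichment of 9.30 and 8.24, or 8.77 ± 0.751 (SD, n = 2). Its summit was nearer to the start of Gm10863 (-616 bp) and lay in the promoter windows of both genes. Its mean differed from that of the -44.8 kb region by less than the spread between replicates. The weaker lay at -2.7 kb (chr15:78997411-78997763) with 3.02 and 2.44, or 2.73 ± 0.415 (SD, n = 2), the lowest mean of the 15. A shared peak in the promoter window was present at 3802 of 22367 protein-coding genes (17.0%). Next to these, replicate 2 alone had a peak at -1.8 kb (chr15:78996493-78996735, fold enrichment 2.32), 187 bp past the nearest annotated start of Gm10863, at 78996496, and one inside the Sox10 gene body at 2.1 kb (chr15:78992768-78993013, intron, 3.16). Just beyond the promoter window, the -5.1 kb region (chr15:78999745-79000478) had 7.34 and 6.92, or 7.13 ± 0.302 (SD, n = 2).

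Between the promoter group and the outer group lay 5 shared regions, with means from 3.38 to 6.28. A pair at -10.9 kb (chr15:79005479-79006053) and -11.7 kb (chr15:79006483-79006819) had mean fold enrichments of 4.76 ± 0.620 and 4.75 ± 0.192 (SD, n = 2), a difference smaller than either spread. After a gap of 16.7 kb, the -28.4 kb region (chr15:79023154-79023533) had 3.27 and 3.49 (mean 3.38) and the -31.2 kb region (chr15:79025944-79026308) had 4.18 and 4.71, each with summits 1 bp apart between replicates. Beside the first of these, replicate 2 alone had a peak at -29.0 kb (chr15:79023793-79024049, 3.42). The -37.6 kb region (chr15:79032363-79032728) had 6.98 and 5.58, or 6.28 ± 0.995 (SD, n = 2).

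Downstream of Sox10, 3 shared regions were found. A pair lay between the end of Sox10 and Polr2f, the gene of an RNA polymerase subunit, which ends at 78982204. Of this pair, the 11.4 kb region (chr15:78983215-78983902) had 6.60 and 3.51, or 5.05 ± 2.18 (SD, n = 2), the widest spread of any shared region, and the 12.3 kb region (chr15:78982452-78982829) had 3.46 and 2.94, or 3.20 ± 0.373 (SD, n = 2). The third lay far from Sox10 at 62.3 kb (chr15:78931911-78933009), at -6750 bp from the TSS of Micall1, a gene of endocytic recycling, and had 7.72 and 8.64, or 8.18 ± 0.650 (SD, n = 2). It was also the widest, at 1099 bp in replicate 1 and 927 bp in replicate 2. A peak of replicate 1 alone at 66.8 kb (chr15:78927970-78928280, 3.59) was the farthest from Sox10.

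Region by region, most fold enrichments differed between replicates no more than is usual in the lists. The median over the 15 shared regions was 6.60 in replicate 1 and 5.20 in replicate 2. The ratio of replicate 2 to replicate 1 enrichment ranged from 0.533 at 11.4 kb to 1.20 at -10.9 kb with a median of 0.942, and 7 of the 15 were higher in replicate 2 and 8 in replicate 1. Over all 15760 pairs of peaks matched one to one between the lists, 57.9% were higher in replicate 2 and the median ratio was 1.05. The central range of the ratio, from the 5th to the 95th percentile, was 0.715 to 1.65, which held 14 of the 15 regions around Sox10. The exception was the 11.4 kb region. Summits of the 15 regions were 1 to 85 bp apart between replicates (median 29 bp), and in 11 they were at most 50 bp apart.

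**Figure D2:**
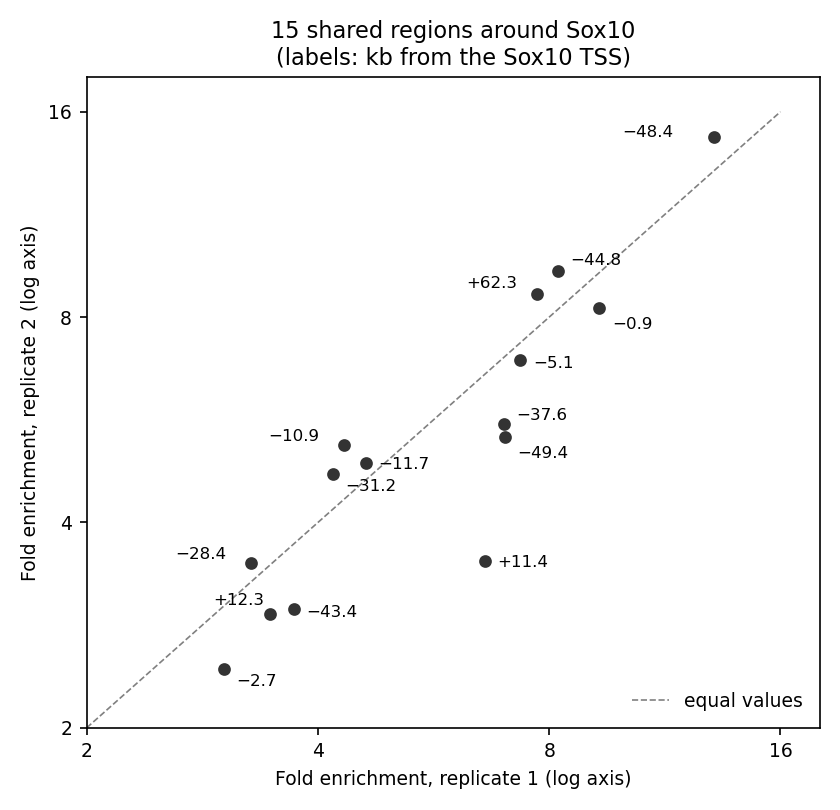
Fold enrichment of the 15 shared regions in replicate 1 (horizontal, log axis) and replicate 2 (vertical, log axis), each point labelled with its distance from the Sox10 TSS in kb and the dashed line marking equal values. The -48.4 kb region is highest in both replicates, and the 11.4 kb region (6.60 and 3.51) lies farthest from the line.

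Peaks seen in 1 replicate were among the weak ones of the window. The 5 of them had fold enrichments from 2.32 to 3.59, and shared regions reached as far down as 3.02 in replicate 1 and 2.44 in replicate 2, both at -2.7 kb, so the ranges overlapped. Of the peaks around Sox10, 88.2% of those in replicate 1 (15 of 17, exact 95% interval 63.6 to 98.5%) and 83.3% of those in replicate 2 (15 of 18, 58.6 to 96.4%) were shared. Over all peaks these shares were 87.1% and 76.0%, and both lay inside the intervals, which cover counting error over peaks only.

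Whether the peaks around Sox10 were strong for their lists depended on the measure and the replicate. By fold enrichment the median fold enrichment was 4.62 in replicate 1 and 4.80 in replicate 2, against 5.56 and 5.75 over all peaks, and 8 of 17 and 5 of 18 lay above those medians. By -log10 p, 10 of 17 and 10 of 18 lay above the 50th percentile of their lists. The median percentile of the 15 shared regions was 36.8 by fold enrichment, 55.5 by -log10 p, and, by fold enrichment in 1 replicate alone, 63.0 in replicate 1 and 40.9 in replicate 2. The 36.8 was the value of the 11.4 kb region, which stood at 63.0 in replicate 1 and 10.6 in replicate 2. Peak widths were near those of the whole lists, with medians of 391 bp against 423 bp in replicate 1 and of 360 bp against 358 bp in replicate 2. In all, the peaks covered 8603 bp in replicate 1 and 7579 bp in replicate 2, with fold enrichments summing to 99.5 and 97.8.

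The number of shared peaks around Sox10 was high among genes. The median of 22367 protein-coding genes had 2 shared peaks within 100 kb of the gene body, 71.7% had at least 1, and 74 genes (0.331%) had 15 or more like Sox10. Of these 74, 7 lay in this same window, and the 74 made up 51 separate loci, so neighbouring genes share peaks in this count. A long gene also has a longer window. Per 100 kb of window Sox10 had 7.16 shared peaks against 0.606 over all genes. Of the 74 genes, 13 were at most 10 kb long, among them Sox10 and its neighbours 1700088E04Rik and Slc16a8, which share its peaks. Within 50 kb Sox10 kept 14 shared peaks, which 0.130% of genes reached. Gene counts are given as a description, since genes are not replicates and the gene was chosen with earlier results of these data known.

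**Figure D3:**
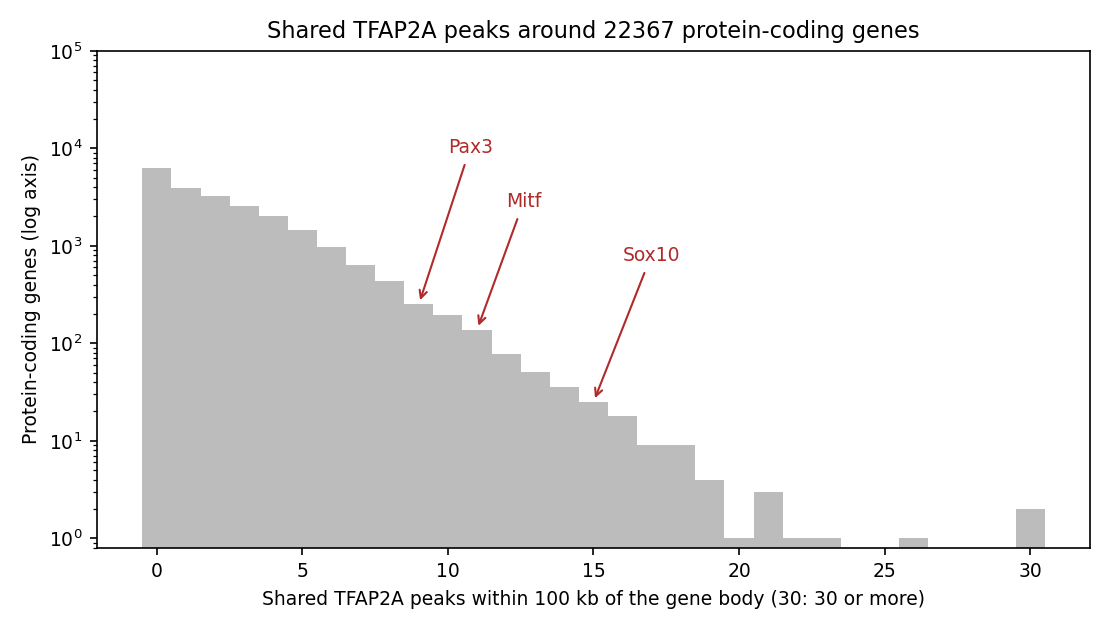
Number of protein-coding genes (vertical, log axis) with each number of shared TFAP2A peaks within 100 kb of the gene body (horizontal, 30 standing for 30 or more). Arrows mark Pax3 (9), Mitf (11) and Sox10 (15), and 74 of 22367 genes reach the count of Sox10.

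The gene neighbourhood gives another way to place the regions. Besides Sox10, 8 protein-coding genes lay in or overlapped the window: Ankrd54, Eif3l, a translation initiation factor subunit, Micall1, 1700088E04Rik, Polr2f, Pick1, a PDZ-domain scaffold protein, Slc16a8, a monocarboxylate transporter, and Baiap2l2. Of these genes and Sox10, a shared peak within the promoter window was found at Sox10 alone. Sox10 was the nearest protein-coding TSS for 11 of the 20 regions (8 shared), Pick1 for 6 (5 shared, all at -37.6 kb or farther upstream), Micall1 for 2 (1 shared) and Polr2f for 1. With non-coding genes included, a start of Gm10863 was the nearest TSS for all 15 upstream regions (12 shared). The windows of the 8 neighbours overlap that of Sox10, so 15 shared peaks also lay within 100 kb of Micall1, 1700088E04Rik, Polr2f and Baiap2l2, 17 within 100 kb of Pick1 and of Slc16a8, 10 of Eif3l and 4 of Ankrd54. Which gene any of these regions acts on was not measured.

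Sequence at the summits was then examined for the TFAP2 consensus GCCNNNGG. A match lay wholly within 50 bp of the replicate 1 summit in 9 of the 15 shared regions (60.0%, exact 95% interval 32.3 to 83.7%), against 57.1% of all 16099 shared peaks on assembled chromosomes and 15.3% of equally long windows centred 400 bp to the left or right. At the replicate 2 summit 8 of 15 held one, at both summits 7 and at either 10. In the side windows of the regions around Sox10 it was 4 of 15 on the left and 5 of 15 on the right. The share at Sox10 was thus near that of shared peaks in general. Taken over the whole replicate 1 peak, all 15 regions held 1 to 5 matches, 41 in total, against 81.6% of all shared peaks with at least 1, and 14 of the 15 replicate 2 peaks held one. Overlapping matches were counted as 1 throughout.

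How close the nearest match was varied among the regions. In the -48.4 kb region 3 matches lay within 50 bp of the summit, as the sequence shows, the nearest with its middle 6.0 bp away. In the 62.3 kb region the nearest was 7.0 bp from the summit, where overlapping matches form 1 stretch of capitals. In the -5.1 kb region it was 39.0 bp away. The 3 other regions with printed sequence, at -0.9 kb and -44.8 kb among the strongest and at -2.7 kb the weakest, had no match wholly inside the 101 bases. At -0.9 kb the nearest had its middle 47.5 bp from the replicate 1 summit and ran 1 bp past the edge of the printed window, and it lay within 50 bp of the replicate 2 summit. At -44.8 kb, where the summit lies at the internal start of Gm10863, the nearest was 129.5 bp away. At -2.7 kb it was 51.5 bp away. Across the 15 regions the nearest match had a median distance of 39.0 bp and a maximum of 246.5 bp, at -49.4 kb. Mean fold enrichment was 3.20 to 13.9 (median 4.76) in the 9 regions with a match at the summit and 2.73 to 8.78 (median 6.23) in the other 6, so the ranges overlapped. The longer palindrome GCCNNNGGC, a stricter form of the consensus, lay within 50 bp of 4 of 15 summits and in 7 of 15 whole peaks, against 19.1% and 34.2% of all shared peaks.

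**Figure D4:**
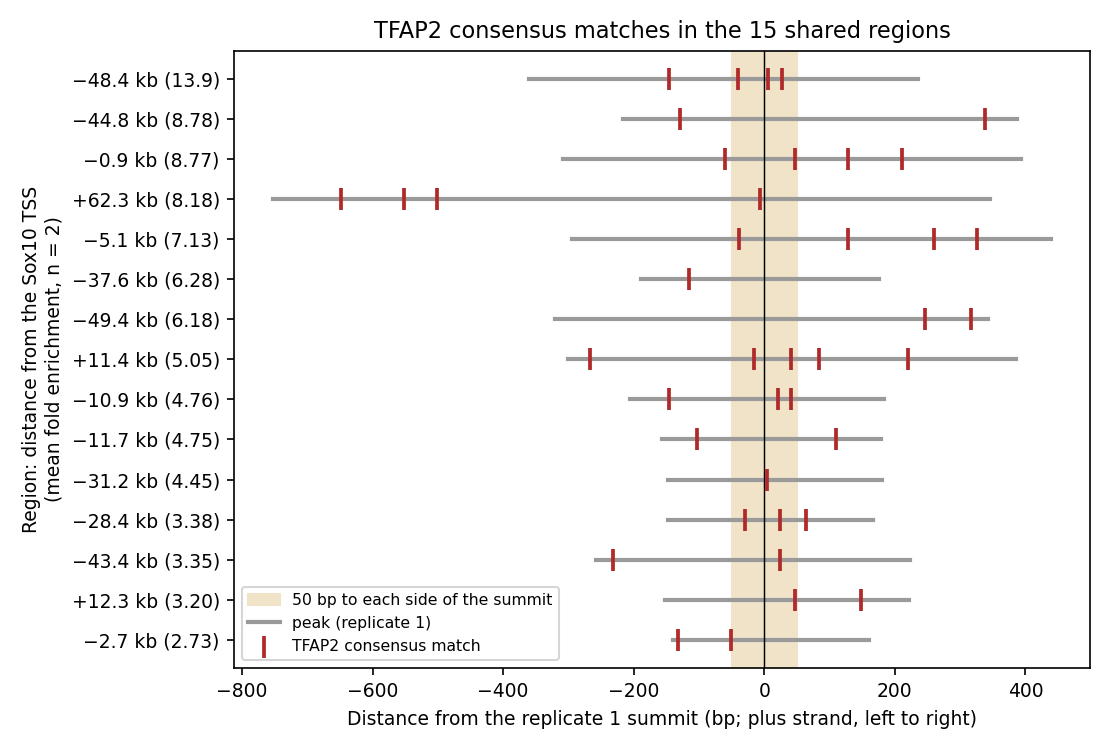
Position in bp from the replicate 1 summit (horizontal) of each TFAP2 consensus match (red ticks at its middle) in the 15 shared regions, ordered by mean fold enrichment (in brackets, n = 2), with grey bars for the replicate 1 peaks and shading for 50 bp to each side. Every bar holds at least 1 tick, a tick near an edge of the shading can belong to a match that runs past it (as at -0.9 kb), and the -44.8 kb region (8.78) has none in the shading while the -48.4 kb region (13.9) has 3.

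Letters bound by other melanocyte and melanoma factors were found at fewer of these summits than the TFAP2 consensus. They were also rarer in the windows 400 bp to the side of all shared peaks. There the shares were 15.3% for TFAP2, 5.54% for TEAD, 3.29% for SOX, 1.75% for AP-1, 1.72% for the M-box and 1.42% for the E-box. The lower counts at summits are therefore no comparison between factors. Letters bound by SOX proteins (ACAAAGG or ACAATGG) were within 50 bp of 0 of 15 replicate 1 summits and 2 of 15 replicate 2 summits, against 5.21% of all shared peaks. Over the whole replicate 1 peaks they occurred 7 times in 6 of 15 regions (all shared peaks 21.6%). All 3 downstream shared regions held 1 or more, at 62.3 kb, 12.3 kb and 11.4 kb (2). Of the 12 upstream shared regions, those at -28.4 kb, -43.4 kb and -48.4 kb did. A wider peak has more room for a match, and those at 62.3 kb (1099 bp) and 11.4 kb (688 bp) exceeded the list median of 423 bp. The M-box TCATGTG and the E-box CACGTG are letters bound by MITF. The M-box lay at 0 of 15 summits of either replicate (all 2.01%) and in 2 of 15 replicate 1 peaks, at -31.2 kb and -43.4 kb (all 9.29%). The E-box lay at 1 of 15 summits in both replicates (all 1.78%), that of the -37.6 kb region. The AP-1 consensus (TGACTCA or TGAGTCA), bound by FOS and JUN proteins, was at 1 of 15 replicate 1 summits (all 6.36%), where it began at the summit base of the -43.4 kb region, and at 0 of 15 replicate 2 summits. The TEAD consensus GGAATG was at 2 of 15 replicate 1 summits (all 10.5%), those of the -11.7 kb and -43.4 kb regions, and at 1 of 15 replicate 2 summits, that of the -11.7 kb region. A control of the same length and spacing as the TFAP2 consensus, CGGNNNCG, was at 0 of 15 summits of either replicate (all 5.93%). In the windows 400 bp to the side of all shared peaks the control was also rarer, at 4.07% against 15.3%. It is thus not matched to the TFAP2 consensus in frequency, and no contrast is drawn from its count. The replicate 1 peak of the -43.4 kb region (482 bp), weak by enrichment, held a match to each of TFAP2, SOX, M-box, AP-1 and TEAD letters, whereas the narrower replicate 2 peak (263 bp) held no M-box. All were searched on both strands, and a match is a description of the letters and not of binding by the factor. The 101 bases at the 15 summits were 50.5 to 70.3% G and C (median 57.4%), against a median of 51.5% over all shared peaks.

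Sox10 was set beside 18 other genes of the neural crest and melanocyte network. A shared peak lay within 100 kb of 12 of the 18, a share to be read against the 71.7% of all protein-coding genes, and in the promoter of 4 (Mitf, Lef1, Tfap2a and Erbb3) against 17.0%. The median over the list was 2.00 shared peaks and 0 of the 18 reached 15. Mitf had 11 shared peaks (12 in replicate 1, 14 in replicate 2) and Pax3, which encodes a paired-box factor acting on Mitf with SOX10, had 9 (9 and 14). Both are much longer genes, 214.3 kb and 95.9 kb against 9.6 kb for Sox10, and had 2.66 and 3.04 shared peaks per 100 kb of window against 7.16.

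The strongest shared peaks at Pax3, Mitf, Ednrb and Sox5 exceeded that at Sox10 in both replicates. The highest fold enrichment was 49.1 and 47.9 (replicates 1 and 2) at Pax3, 23.9 and 24.1 at Mitf, 22.1 and 20.3 at Ednrb and 14.2 and 19.5 at Sox5, against 13.1 and 14.7 at Sox10. The median over shared peaks was 8.30 and 10.2 at Pax3, 8.18 and 10.6 at Mitf, and 6.60 and 5.20 at Sox10. A TFAP2 match lay at the summit of 3 of 9 shared peaks at Pax3 and 5 of 11 at Mitf. These differences between loci were not tested.

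The other SOX genes of the list had fewer. Sox9 and Sox8, which with Sox10 make up the SoxE group, had 0 and 2 shared peaks, Sox9 with 1 peak in replicate 2 only. Sox5, which encodes a SoxD protein that modulates SOX10 activity in melanocytes and extends over 953.6 kb, had 8, and Sox2 had 0 with 1 peak in replicate 1 only. Among the rest, Erbb3, a neuregulin receptor gene of neural crest cells and glia, had 6, Irf4 and Tfap2a had 5 each, Lef1 and Yy1 had 3 each, Ednrb had 2, and Kit and Foxd3 had 1 each. Tfap2b had 3 peaks in replicate 2 and 0 shared, and Msx2, Snai2 and Zic1 had 0 in either list. Ednrb (3 and 11) and Kit (1 and 7) differed most between the replicate lists in this set, whereas Sox10 had 17 and 18.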

How the data were processed

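TFAP2A ChIP-seq and an input were sequenced from melan-a cells, and 1 list of peaks for each ChIP replicate was deposited. The submitters' processing notes name BWA, MACS 1.4.2 and mm9, but the layout of the lists, with q-values and summits, is that of MACS2, so the version behind the fold enrichment and the q-values is uncertain. The deposited lists give a fold enrichment (a ratio over background), the -log10 p, the -log10 q and a score for each peak. On every peak the deposited score was 10 times the -log10 p with its decimals dropped, and it was not used further. The lowest deposited -log10 p was 5.05 and 5.06 and that of -log10 q was 2.64 in each list, so weaker regions are not listed. Depth was unknown, so depth may differ between the lists and move their peak counts, and 2 replicates limit the precision of each mean.

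Peaks were placed by summit in mm9 (0 ran past a chromosome end) with GENCODE version M1 genes, which list Tfap2a as Tcfap2a and Tfap2b as Tcfap2b. Peaks overlapping by at least 1 bp were shared, the study's rule, and shared peaks were counted as replicate 1 peaks. Percentiles are shares of peaks of the same list with a lower value. Intervals are exact Clopper-Pearson 95% intervals. Python 3.11.15, numpy 2.4.6, pandas 2.3.3 and scipy 1.17.1 were used, and the overlap and consensus counts were tested on simulated data. The members, the gene list, the motifs and the alternatives were chosen with earlier results of these data known. All regions in the window were described, and named genes were those in the window, those nearest to a peak and the 18 of the network list. Sequences were printed for the 5 shared regions of highest mean enrichment and those within 5 kb of the TSS. Alternatives were the window, the shared rule, the strength threshold, the motif and its window, the promoter and each replicate alone.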

Additional observations from a re-analysis of the deposited data

How the results depend on the processing

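The number of regions (20) and of shared regions (15) stayed within 1.5 times under 50 kb and 200 kb windows (18 and 28 regions, 14 and 19 shared), a -log10 q of at least 5 (19 and 14) and, for shared regions, 3 other rules of matching peaks (15 each), and fell to 8 and 5 when only peaks in the upper 50% by fold enrichment were kept. The median over regions of the mean fold enrichment, 5.05, was 5.20 to 6.60 with 1 replicate alone. The median percentile of the shared regions, 36.8 by fold enrichment, was 55.5 by -log10 p and 40.9 to 63.0 with 1 replicate alone. The 9 regions with a TFAP2 match at the summit became 4 with GCCNNNGGC and 15 over the whole peak, by construction of the search, and 11 within 100 bp. The 2 promoter regions became 1 with 1 kb to each side of the TSS. The share of genes with as many peaks as Sox10, 0.331%, was 0.130% for 50 kb, 0.630% by the sum of fold enrichment, 0.340 to 0.349% with 1 replicate alone, and 0.121% with 100 kb to each side of the TSS, an alternative chosen after seeing the data. The 12 network genes with a shared peak became 4 with promoters only. The medians 5.05 and 36.8 were both the values of the 11.4 kb region. Its fold enrichments (6.60 and 3.51) and its percentiles by fold enrichment (63.0 and 10.6) differed widely between replicates. Why the other values moved was not tested. No paired analysis was possible because there was 1 group of ChIP replicates and no result came from a test. The unknown depth limits what the absence of a peak in 1 replicate says.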
